A study of Mus musculus with 6 samples.

Results

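The Hippo kinase core and the regulators that act just above it were described across left ventricles collected 4 days post injury (dpi). The 10 genes were *Stk3*, *Stk4*, *Sav1*, *Lats1*, *Lats2*, *Mob1a*, *Mob1b*, *Nf2*, *Frmd6* and *Wwc2*, found by symbol among the 17556 genes of the deposited expression table; all 10 were listed and passed the filter on low counts. All mice underwent permanent ligation of the left anterior descending artery to produce a myocardial infarction (MI) and received a tamoxifen citrate diet from the end of surgery. All were siblings, 6 to 10 weeks old, with floxed alleles of *Yap* (both alleles) and *Wwtr1* (a single allele), and were bred from Jackson Laboratory stocks. Cre positive mice (n = 3 ventricles) carried MerCreMer, a tamoxifen inducible Cre, in the endogenous *Postn* locus, which is active in myofibroblasts, and Cre negative siblings (n = 3 ventricles) had wildtype *Postn*. The comparison asks how loss of *Yap* and of an allele of *Wwtr1* in myofibroblasts bears on RNA of the infarcted ventricle. Cre itself and the altered *Postn* locus differ between the groups in the same way. No group carried Cre without the floxed alleles, so these cannot be told apart from loss of *Yap* and *Wwtr1*. Both groups carried the floxed alleles, the infarct and tamoxifen, so no ventricle was uninjured. The labels number the ventricles as replicates and do not say whether each came from a separate mouse, so p-values measure only the spread between these samples.

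The Hippo pathway restrains growth by keeping the coactivators Yap and Taz (the product of *Wwtr1*) out of the nucleus. Mst kinases, bound to the scaffold Sav1, phosphorylate the Lats kinases and their Mob1 partners, and active Lats then phosphorylates Yap and Taz, which are held in the cytoplasm by 14-3-3 proteins or degraded. Nf2, Frmd6 and the Wwc proteins link this cascade to membranes and cell junctions. In the heart the pathway is known to limit cardiomyocyte proliferation, and Yap and Taz are active in fibroblasts after injury. The cascade itself works by phosphorylation, which RNA levels do not measure.

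Libraries summed to between 13177888 and 14827579 estimated counts. The 10 Hippo genes had between 129 (*Mob1b*) and 1990 (*Nf2*) counts per ventricle. Normalized counts (scaled by edgeR's TMM method to a common library size) of *Yap1* and *Wwtr1* overlapped between groups, with log2 fold changes of 0.03 (SE, the standard error, 0.087) and 0.05 (SE 0.083, with adjusted p = 0.935 and 0.876 in edgeR's quasi-likelihood test). In TPM (transcript abundance scaled to length), both lay higher in every Cre positive ventricle, *Yap1* at 48.9 to 50.7 against 44.2 to 46.3 and *Wwtr1* at 43.9 to 47.4 against 39.3 to 43.6, as did 15% of all genes tested. RNA of the whole ventricle includes many cells that do not express *Postn*, and counts over a whole gene cannot show whether a floxed exon was removed. *Postn*, the driver locus, had 12182, 24690 and 26918 normalized counts in Cre negative ventricles and 12708, 14270 and 13514 in Cre positive ventricles, a log2 fold change of −0.66 (SE 0.27, edgeR adjusted p = 0.714). Cre negative ventricle 1 stood apart from the other Cre negative ventricles, and without it the log2 fold change of *Postn* was −0.94 (edgeR adjusted p = 0.0182, where adjusted p ranged up to 0.970 over 12 alternatives).

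None of the 10 Hippo genes passed an adjusted p of 0.05 (Benjamini-Hochberg) in edgeR's quasi-likelihood test over 13817 genes, where a single gene did (0.00724% of genes), the guanylate-binding protein gene *Gbp2b*. At an unadjusted p under 0.05, 2 of the 10 were higher in Cre positive ventricles and none was lower, against 5.83% of all genes in either direction and 2.85% higher. DESeq2's Wald test also gave 0 of 10 at an adjusted p of 0.05 and 2 of 10 unadjusted, beside 5 and 840 of all genes. It was given all 17556 genes listed, of which 17525 had any count after rounding. The 2 genes were *Mob1a* and *Lats2*, and they were also the only Hippo genes of the 10 whose Cre positive normalized counts all lay above the Cre negative ones, which was so for 7.55% of all genes. The log2 fold change was above 0 for 9 of 10, with *Nf2* the exception, against 51.2% of all genes, and its median was 0.16 against 0.01 for all genes tested. The largest fold among them was 1.21 (*Mob1a*). In RNA of whole ventricles, fewer cells of a type and less RNA per cell cannot be told apart. Without Cre positive ventricle 2 the median was 0.07 and 0 of 10 had an unadjusted p under 0.05, as 2.68% of all genes then did, and without Cre negative ventricle 1 the median was 0.12 with 2 of 10, beside 6.59% of all genes.

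Upstream sequence is shown for the 2 genes whose groups did not overlap and for *Wwc2*, whose window held the most matches to the letters bound by TEAD factors, the DNA-binding partners of Yap and Taz. Each sequence is the 250 bases before a RefSeq transcript start on GRCm38.p6, 5′ to 3′ on the gene's strand, and capitals mark GGAATG or, on the other strand, its reverse complement CATTCC. The *Mob1a* window lies at chr6:83325789-83326038 on the plus strand, that of *Lats2* at chr14:57746124-57746373 on the minus strand and that of *Wwc2* at chr8:47990545-47990794 on the minus strand.
Mob1a: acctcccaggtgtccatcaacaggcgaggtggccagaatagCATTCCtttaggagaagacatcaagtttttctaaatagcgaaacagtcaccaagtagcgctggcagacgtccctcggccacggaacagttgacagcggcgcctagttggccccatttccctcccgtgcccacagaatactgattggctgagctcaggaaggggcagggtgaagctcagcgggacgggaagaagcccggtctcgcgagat
Lats2: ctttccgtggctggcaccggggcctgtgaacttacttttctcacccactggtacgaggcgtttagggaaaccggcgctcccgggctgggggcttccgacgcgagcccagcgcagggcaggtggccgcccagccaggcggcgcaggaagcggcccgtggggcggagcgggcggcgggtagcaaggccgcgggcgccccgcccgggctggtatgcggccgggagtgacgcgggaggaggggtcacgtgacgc
Wwc2: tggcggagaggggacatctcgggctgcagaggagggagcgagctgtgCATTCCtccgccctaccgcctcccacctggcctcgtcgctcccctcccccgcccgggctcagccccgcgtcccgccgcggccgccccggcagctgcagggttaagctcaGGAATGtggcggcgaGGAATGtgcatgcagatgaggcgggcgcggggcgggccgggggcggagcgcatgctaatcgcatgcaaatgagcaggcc
The *Mob1a* window held a match 209 bases before the start, the *Lats2* window held none, and the *Wwc2* window held 3, beginning 203, 94 and 79 bases before the start. *Sav1* had a match 106 bases before its start. Of 11 windows of 9 of the genes, 3 held a match, and 10.95% of 14018 windows of genes tested did (either strand). *Lats2* and *Nf2* each had a further window without a match. These are matches of letters, not measured binding sites.

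**Figure D1:**
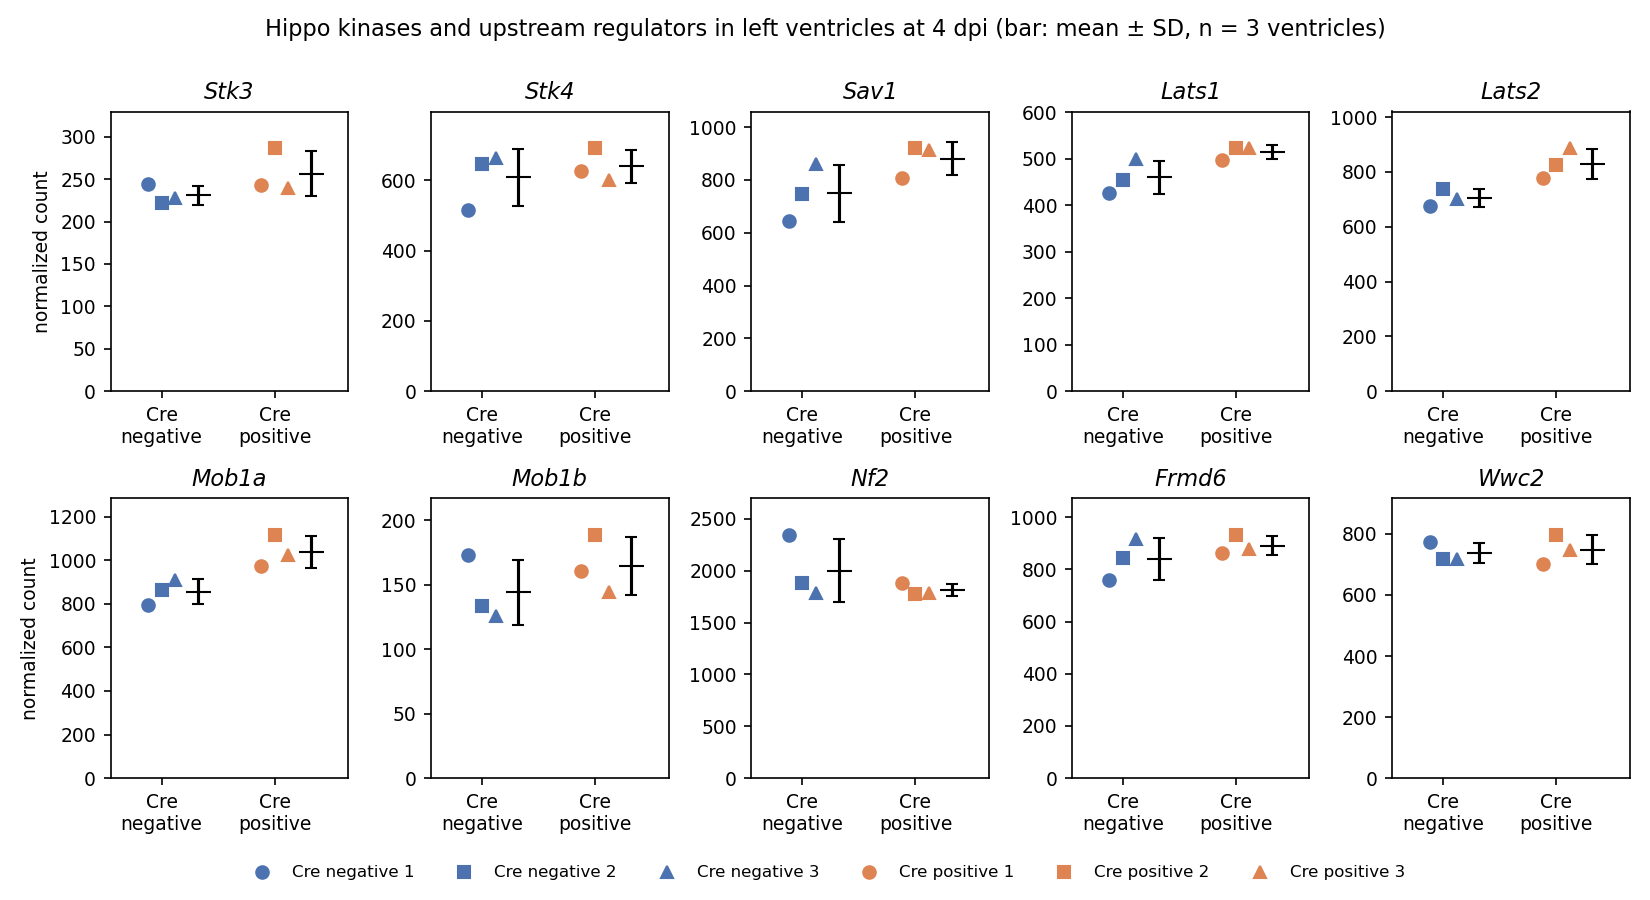
TMM-normalized counts of the 10 Hippo genes in each left ventricle at 4 dpi, on axes that start at 0. Blue points are Cre negative and orange points Cre positive ventricles, with shape giving the replicate number and bars the mean ± SD (n = 3 ventricles). The groups do not overlap for *Lats2* and *Mob1a*, and Cre negative ventricle 1 is apart from the other Cre negative ventricles for *Stk4* and *Nf2*.

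Lats kinases with their Mob1 activators are the last step before Yap. *Mob1a* (gene number 232157, chr6:83326034-83342812) encodes a Mob1 protein that binds and activates Lats. Its normalized counts were 796, 864 and 907 in Cre negative ventricles and 974, 1116 and 1023 in Cre positive ventricles, so that the lowest Cre positive value lay above the highest Cre negative value. Means were 856 ± 55.8 and 1038 ± 71.7 (SD, n = 3), a log2 fold change of 0.28 (SE 0.093, edgeR p = 0.0179 and adjusted p = 0.714, exact permutation p = 0.1). Exact permutation tests were two-sided, and 0.1 is the smallest p that 3 ventricles against 3 allow. *Mob1b* (gene number 68473, chr5:88720871-88758455), the paralogue, had 173, 134 and 126 normalized counts without Cre and 161, 189 and 145 with it. Here the groups overlapped, with Cre negative ventricle 1 above the other Cre negative ventricles, and the log2 fold change was 0.20 (SE 0.18, edgeR adjusted p = 0.755), 0.34 without Cre negative ventricle 1 and 0.09 without Cre positive ventricle 2.

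*Lats2* (gene number 50523, chr14:57689662-57746212) encodes a kinase that phosphorylates Yap and Taz and is itself a known target gene of Yap. It was measured at 675, 738 and 703 normalized counts in Cre negative ventricles and at 779, 824 and 887 in Cre positive ventricles. Every Cre positive value was above every Cre negative value, with means of 830 ± 54.5 and 705 ± 31.7 (SD, n = 3) and a log2 fold change of 0.23 (SE 0.086, edgeR p = 0.0265 and adjusted p = 0.714, exact permutation p = 0.1). *Lats1* (gene number 16798, chr10:7681200-7716461), the other Lats kinase, had 428, 454 and 499 normalized counts without Cre and 497, 524 and 522 with it. A single pair of values crossed, Cre negative ventricle 3 lying just above Cre positive ventricle 1, and the log2 fold change was 0.16 (SE 0.092, edgeR adjusted p = 0.714). Over 12 alternatives, the log2 fold change stayed between 0.22 and 0.32 for *Mob1a*, between 0.18 and 0.28 for *Lats2* and between 0.11 and 0.22 for *Lats1*, with adjusted p at or above 0.509 for each.

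At the top of the core, *Stk3* (gene number 56274, chr15:34875499-35155882) and *Stk4* (gene number 58231, chr2:164074113-164155524) encode the Mst kinases Mst2 and Mst1. *Stk3* had 244, 222 and 228 normalized counts in Cre negative ventricles and 243, 287 and 240 in Cre positive ventricles. Cre positive ventricle 2 was the highest, the other two lay within the Cre negative range, and the log2 fold change was 0.15 (SE 0.12, edgeR adjusted p = 0.727), and 0.06 without Cre positive ventricle 2. *Stk4* had 515, 647 and 663 normalized counts without Cre and 626, 692 and 602 with it. The lowest was Cre negative ventricle 1, and the log2 fold change of 0.07 (SE 0.12, edgeR adjusted p = 0.860) became −0.04 without that ventricle. *Sav1* (gene number 64010, chr12:69965009-69988141), the scaffold that joins Mst to Lats, had 643, 746 and 859 normalized counts without Cre and 808, 921 and 913 with it. Its log2 fold change was close to that of *Lats2*, 0.23 (SE 0.12, edgeR p = 0.0929 and adjusted p = 0.714, exact permutation p = 0.2), but Cre negative ventricle 3 lay above Cre positive ventricle 1, and the log2 fold change was 0.13 without Cre negative ventricle 1.

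Upstream of the core, *Nf2* (gene number 18016, chr11:4757639-4849544) encodes Merlin, a membrane-linked tumour suppressor that brings Lats to the plasma membrane. Its normalized counts were 2344, 1878 and 1782 in Cre negative ventricles and 1880, 1773 and 1785 in Cre positive ventricles. The 5 other ventricles lay between 1773 and 1880, and Cre negative ventricle 1 alone was above them. The log2 fold change of −0.14 (SE 0.12, edgeR adjusted p = 0.737) was −0.02 without that ventricle and −0.22 without Cre negative ventricle 3. *Frmd6* (gene number 319710, chr12:70825456-70902234), a FERM domain protein, had 759, 844 and 918 normalized counts without Cre and 865, 932 and 878 with it. The groups overlapped, and the log2 fold change was 0.08 (SE 0.095, edgeR adjusted p = 0.796), 0.01 without Cre negative ventricle 1 and 0.15 at most with another ventricle left out. *Wwc2* (gene number 52357, chr8:47826082-47990544), a relative of Kibra that binds Lats, had 774, 717 and 718 normalized counts without Cre and 701, 796 and 746 with it. Values of both groups were interleaved, the log2 fold change was 0.02 (SE 0.085, edgeR adjusted p = 0.943), and over the 6 ventricles its spread relative to its mean was the lowest of the 10 genes.

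**Figure D2:**
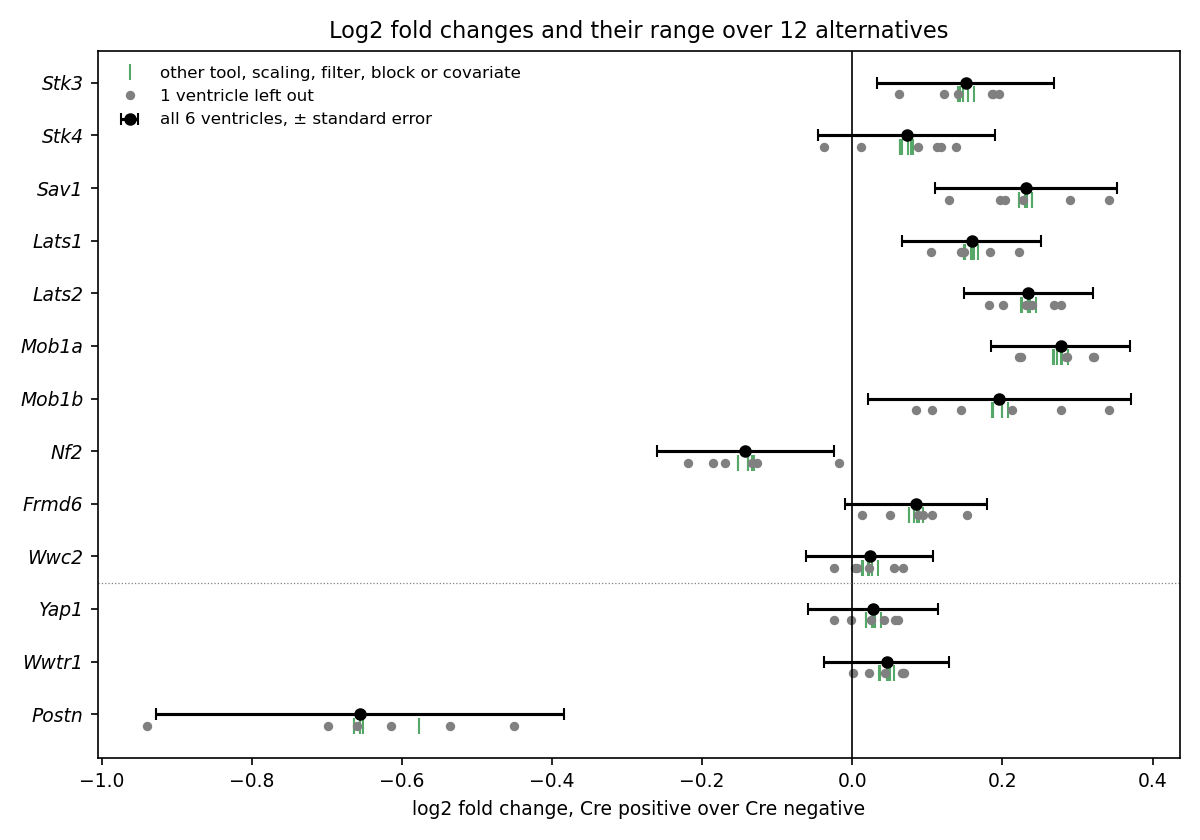
Log2 fold change of the 10 Hippo genes and, below the dotted line, of *Yap1*, *Wwtr1* and *Postn*, Cre positive over Cre negative. Black points and bars are edgeR's estimate ± its standard error over 6 ventricles, grey points leave out a ventricle each and green ticks are the other 6 alternatives. *Nf2* is the Hippo gene below 0, at −0.14, and the points of *Stk4*, *Wwc2* and *Yap1* fall on both sides of 0.

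The extremes of the 10 genes fell largely in a pair of ventricles. Cre positive ventricle 2 was the highest of the 6 for 8 of the 10 Hippo genes, against 20.1% of all genes, the exceptions being *Lats2* and *Nf2*. Cre negative ventricle 1 was the lowest for 6 of the 10 (*Stk4*, *Sav1*, *Lats1*, *Lats2*, *Mob1a* and *Frmd6*), against 32.1% of all genes. Cre positive ventricle 2 and Cre negative ventricle 2 also differed from the others in Y-linked genes, whose summed level over 4 genes was 0.81 and 0.70 TPM there and 66.0 to 88.6 elsewhere, and the labels do not give the sex of the mice. A single ventricle of each group was low in Y-linked genes, so these levels were balanced between groups.

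Levels were compared between genes in TPM. The order of mean TPM over the 6 ventricles ran from the membrane regulator *Nf2* at 52.0 ± 2.97 (SD, n = 6) through the scaffold *Sav1* at 42.8 ± 7.97, *Mob1a* at 38.6 ± 7.28, *Frmd6* at 23.7 ± 3.04, *Lats2* at 19.4 ± 2.94, *Wwc2* at 19.0 ± 1.66, *Stk4* at 15.6 ± 2.29, *Stk3* at 11.3 ± 1.38 and *Lats1* at 8.75 ± 1.24 to *Mob1b* at 6.36 ± 1.13. The kinases were thus lower in RNA than the scaffold *Sav1* and the activator *Mob1a*. Ranges over ventricles overlapped between every pair of neighbours in this order except *Mob1a* and *Frmd6*. Within a ventricle the order was firmer, each gene lying above the next in all 6 ventricles except *Lats2*, which was above *Wwc2* in 4 of 6. Genes tested had a median of 15.8 TPM, and the 10 Hippo genes spanned from percentile 28.4 (*Mob1b*) to percentile 79.3 (*Nf2*). *Nf2*, *Sav1* and *Mob1a* made up 22.2%, 17.9% and 16.1% of the TPM summed over the 10 genes.

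**Figure D3:**
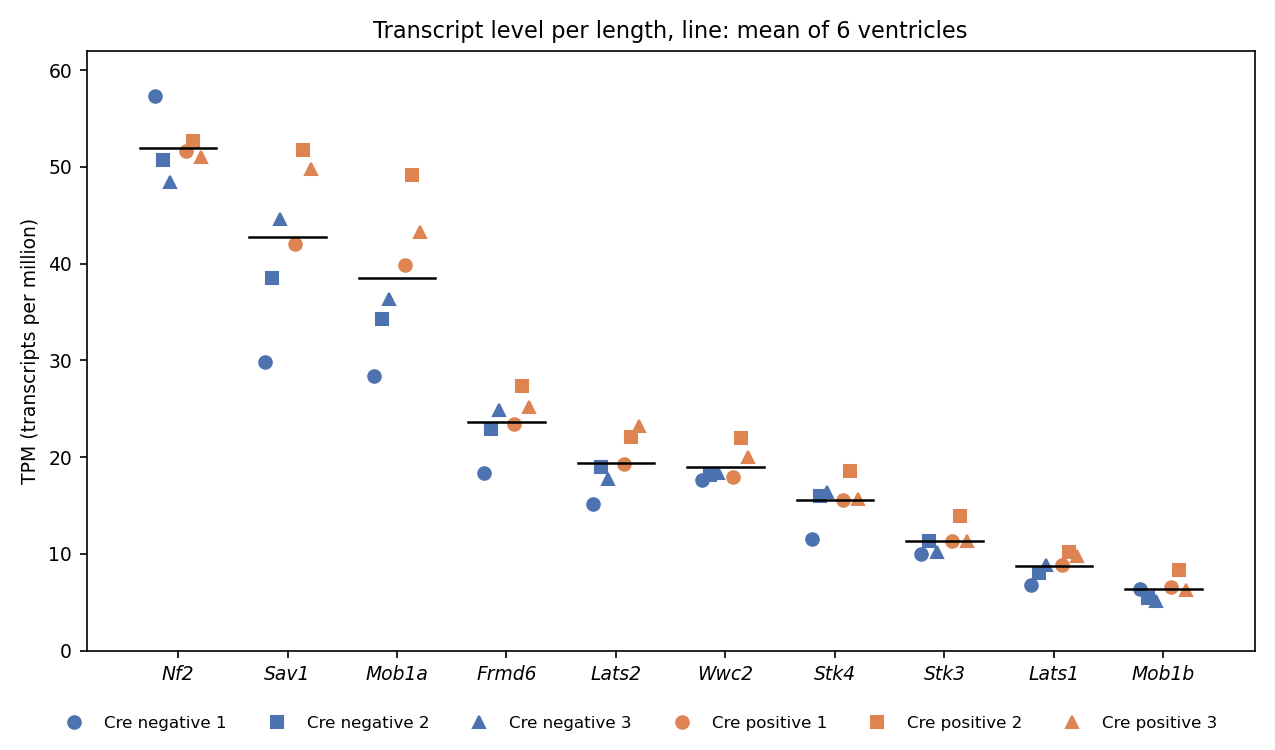
TPM of the 10 Hippo genes in each ventricle, ordered by the mean of 6 ventricles (black line). Colours and shapes mark group and replicate. *Nf2* is the highest and *Mob1b* the lowest in mean, and a gap separates *Mob1a*, with no ventricle under 28.3, from *Frmd6*, with none over 27.4.

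Each kinase and the Mob1 protein come as a pair of paralogues, and the balance within a pair was compared between groups inside each ventricle. *Lats1* had 0.449, 0.423 and 0.502 times the TPM of *Lats2* in Cre negative ventricles and 0.457, 0.462 and 0.423 times in Cre positive ventricles. *Lats2* was therefore the more abundant Lats transcript in all 6 ventricles. *Stk3* had 0.871, 0.709 and 0.622 times the TPM of *Stk4* without Cre and 0.727, 0.749 and 0.723 times with it. *Mob1a* was 4.46, 6.28 and 7.06 times as high as *Mob1b* without Cre and 6.04, 5.88 and 6.94 times with it. For both of these pairs the Cre negative ventricles were more spread than the Cre positive ones, with Cre negative ventricle 1 the highest for *Stk3* over *Stk4* and the lowest for *Mob1a* over *Mob1b*. The mean log2 ratio differed between groups by −0.03 for Lats, 0.01 for Mst and 0.11 for Mob1, each less than the SD within the Cre negative group (0.126, 0.245 and 0.344), and exact two-sided permutation tests gave p = 0.8, 0.8 and 0.9 (0.9 for each after Benjamini-Hochberg adjustment over 3 pairs). The sign of each difference turned when some ventricle was left out.

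**Figure D4:**
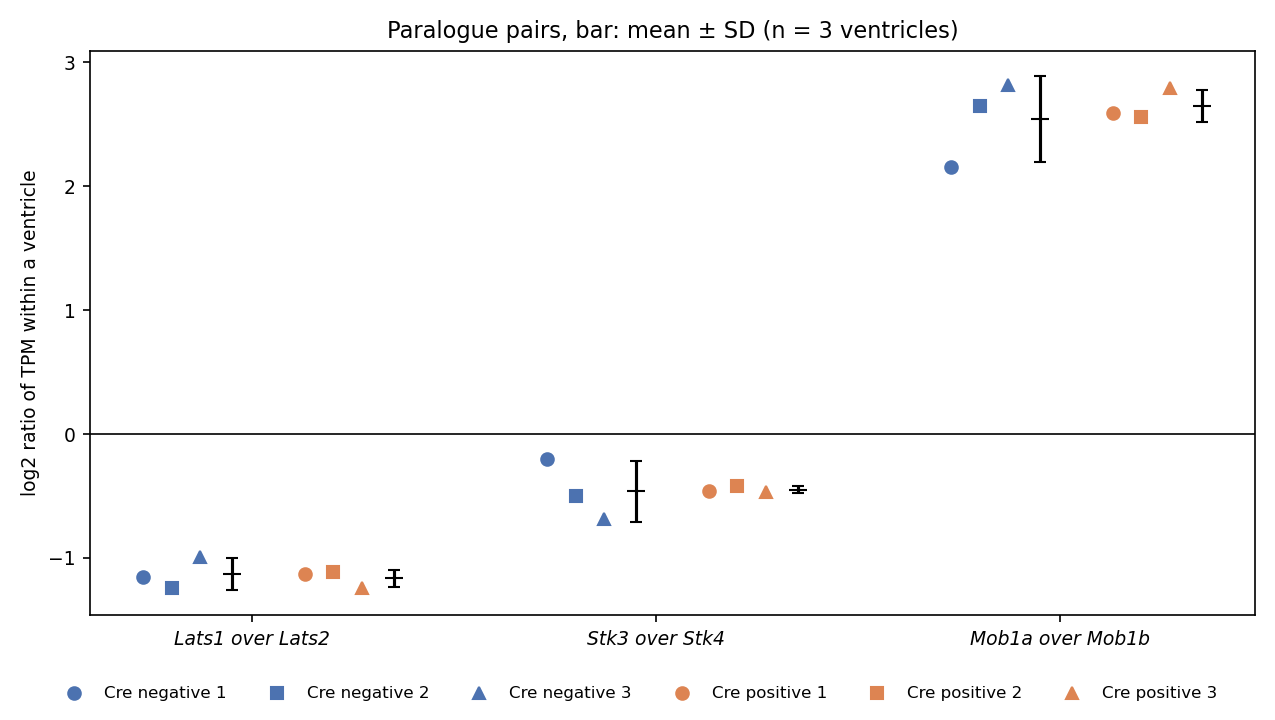
Log2 ratio of TPM within a ventricle for 3 pairs of paralogues, where 0 is equal levels and bars are the mean ± SD (n = 3 ventricles). *Lats1* lies below *Lats2* and *Stk3* below *Stk4* in all 6 ventricles, *Mob1a* lies above *Mob1b* in all 6, and the groups overlap in every pair.

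Counts and FPKM (fragments per length and library) can be read together for transcript use, since the count divided by FPKM and by the library total gives the average length of the transcripts counted. For *Stk3* this implied length was 2477 bases in Cre negative ventricle 2 and between 2722 and 2823 bases in the other 5, a ratio of 1.14 between highest and lowest, above that of 97.5% of 10021 genes with at least 100 counts in every ventricle (median 1.01). For *Lats2* the range was 4907 to 5103 bases, again lowest in Cre negative ventricle 2, and for the other 8 genes the ratio was between 1.002 and 1.03. On TPM, which is also divided by length, *Stk3* was also separated between groups, narrowly, with 10.02 to 11.30 without Cre and 11.32 to 13.89 with it, so that 3 of 10 genes did not overlap in place of 2, against 15% of all genes that lay higher in every Cre positive ventricle in TPM.

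The rest of the pathway was taken from a list of 80 further genes by role, of which 77 were tested (*Fat2*, *Dchs2* and *Rassf6* were not). None passed an adjusted p of 0.05 in edgeR's test or in DESeq2's. At an unadjusted p under 0.05, 3 of the 77 were higher and 1 was lower in Cre positive ventricles, against 5.83% of all genes in either direction and 2.85% higher. The Cre positive ventricles were all above the Cre negative ones for 12 genes and all below for 1, against 7.55% and 6.85% of all genes. The median log2 fold change of the 77 was 0.07, with 54 of 77 above 0 against 51.2% of all genes.

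Other kinases and phosphatases act on the core or beside it. *Stk38l*, an NDR kinase of the same family as Lats, had 397, 348 and 441 normalized counts without Cre and 521, 478 and 454 with it, without overlap and with a log2 fold change of 0.29 (SE 0.11, edgeR p = 0.0356 and adjusted p = 0.714, exact permutation p = 0.1). Its paralogue *Stk38* was at 0.07. Of 10 MAP4K and TAO kinases, which can phosphorylate Lats in place of Mst, 9 were above 0 with a median of 0.10 and none had an unadjusted p under 0.05. The most abundant, *Map4k4* and *Mink1*, were at 0.16 and 0.01 and *Tnik* was at −0.35. The 16 genes of the STRIPAK phosphatase complex, which removes phosphate from Mst, had a median of −0.01 with 7 above 0, and *Ppp2r1a*, *Ppp2ca* and *Strip2* were at −0.15, −0.09 and −0.20.

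At junctions and the membrane, *Dlg5*, a scaffold protein of cell junctions, had 294, 334 and 347 normalized counts without Cre and 382, 444 and 451 with it. Its groups did not overlap, and the log2 fold change was 0.39 (SE 0.11, edgeR p = 0.00964 and adjusted p = 0.714, exact permutation p = 0.1). *Fat1*, a giant cadherin, had 1176, 1478 and 1536 normalized counts without Cre and 1765, 1900 and 1746 with it, also with no overlap and a log2 fold change of 0.37 (SE 0.12, edgeR p = 0.0142 and adjusted p = 0.714, exact permutation p = 0.1). Of the 14 junction and polarity genes 10 were above 0 with a median of 0.09, and of the 5 Fat and Dachsous genes 4 were above 0 with a median of 0.22, the cadherin *Dchs1* at 0.22. *Wwc1* (Kibra), the relative of *Wwc2*, had the largest log2 fold change of the list, 1.03 (SE 0.51), at between 2.92 and 14.96 normalized counts, and *Crb2* was at 0.49 (SE 0.53). The most abundant genes of the role, *Amotl2* and *Tjp1*, were at −0.09 and 0.05.

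*Limd1*, a LIM protein that binds and inhibits Lats, was the gene that was lower at an unadjusted p. It had 1403, 964 and 1202 normalized counts without Cre and 875, 1021 and 914 with it, overlapping in Cre negative ventricle 2, with a log2 fold change of −0.34 (SE 0.14, edgeR p = 0.0439 and adjusted p = 0.714, exact permutation p = 0.2). The related *Wtip* was at 0.26. The 5 RASSF genes, adaptors of Mst, had a median of 0.03 (*Rassf1* 0.13, *Rassf3* −0.10), and the 7 Yap, Taz and TEAD genes were all above 0 with a median of 0.05. The 15 ubiquitin ligases, casein kinases and 14-3-3 genes had a median of 0.08 with 9 above 0, and none had an unadjusted p under 0.05. Of these 15, *Sfn* was at 0.54, *Nedd4* at 0.07, *Ywhae* at −0.07 and *Btrc* at −0.15.

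Summed over the 10 Hippo genes, TPM was 201, 224 and 231 in Cre negative ventricles and 236, 276 and 256 in Cre positive ventricles, a ratio of means of 1.17 with no overlap. By single gene, 15% of all genes tested lay higher in every Cre positive ventricle in TPM. The ratio was 1.10 for the other pathway genes and 1.17 for 18 target genes of Yap, and both of these sums overlapped between groups. TPM shares a fixed total within a library, and markers of cell types moved beside the sum of the 10 Hippo genes. The summed TPM of 8 cardiomyocyte markers, *Myh6* and *Tnnt2* among them, was 38800 to 43910 without Cre and 32350 to 37310 with it, with no overlap. All 8 markers had log2 fold changes below 0, with a median of −0.33, and for 6 of the 8 the Cre positive ventricles were all below the Cre negative ones, against 6.85% of all genes. Markers of endothelium (6 genes, 447 to 532 without Cre and 544 to 608 with it) and of smooth muscle (4 genes, 220 to 445 and 454 to 483) were higher in sum in every Cre positive ventricle. By single marker in normalized counts, 1 of the 6 endothelial genes (*Emcn*) and 1 of the 4 smooth muscle genes (*Cnn1*) lay higher in every Cre positive ventricle, against 7.55% of all genes, 5 of 6 and 3 of 4 log2 fold changes were above 0, against 51.2%, and the medians were 0.05 and 0.30. Fibroblast markers (8 genes) ran from 4660 to 7446 without Cre and from 7405 to 8548 with it, with 6 of 8 log2 fold changes above 0.

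Cre negative ventricle 1, the lowest ventricle for 6 Hippo genes, held the highest cardiomyocyte sum and the lowest fibroblast, smooth muscle, endothelium, myofibroblast (824 against 1334 to 1919) and macrophage (3060 against 3986 to 4935) sums of the 6 ventricles. Its neutrophil sum, 413, was the highest, against 48.4 to 156, with *S100a8* and *S100a9* at 152 and 203 TPM. In contrast, 1 of the 5 neutrophil markers, *Csf3r*, was lowest there, at 12.29 TPM against 17.38 to 25.95. Between groups, myofibroblast and macrophage sums overlapped, as did those of neutrophils, T cells (1.24 to 2.53 and 1.60 to 4.92), B cells (8.79 to 37.2 and 6.51 to 53.5) and red cells (15630 to 27290 and 14320 to 25470). The myofibroblast sum includes *Postn*, the driver locus, at a log2 fold change of −0.66. In the same list *Acta2* was at 0.33, *Cthrc1* at 0.35 and *Fap* at −0.004, so the overlap of the sum does not speak for each marker. The T cell marker *Cd3d* was at 0 TPM in a single ventricle, and the other markers were above 0 in all 6. The part of these marker levels in the differences of the Hippo genes was not tested.

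**Figure D5:**
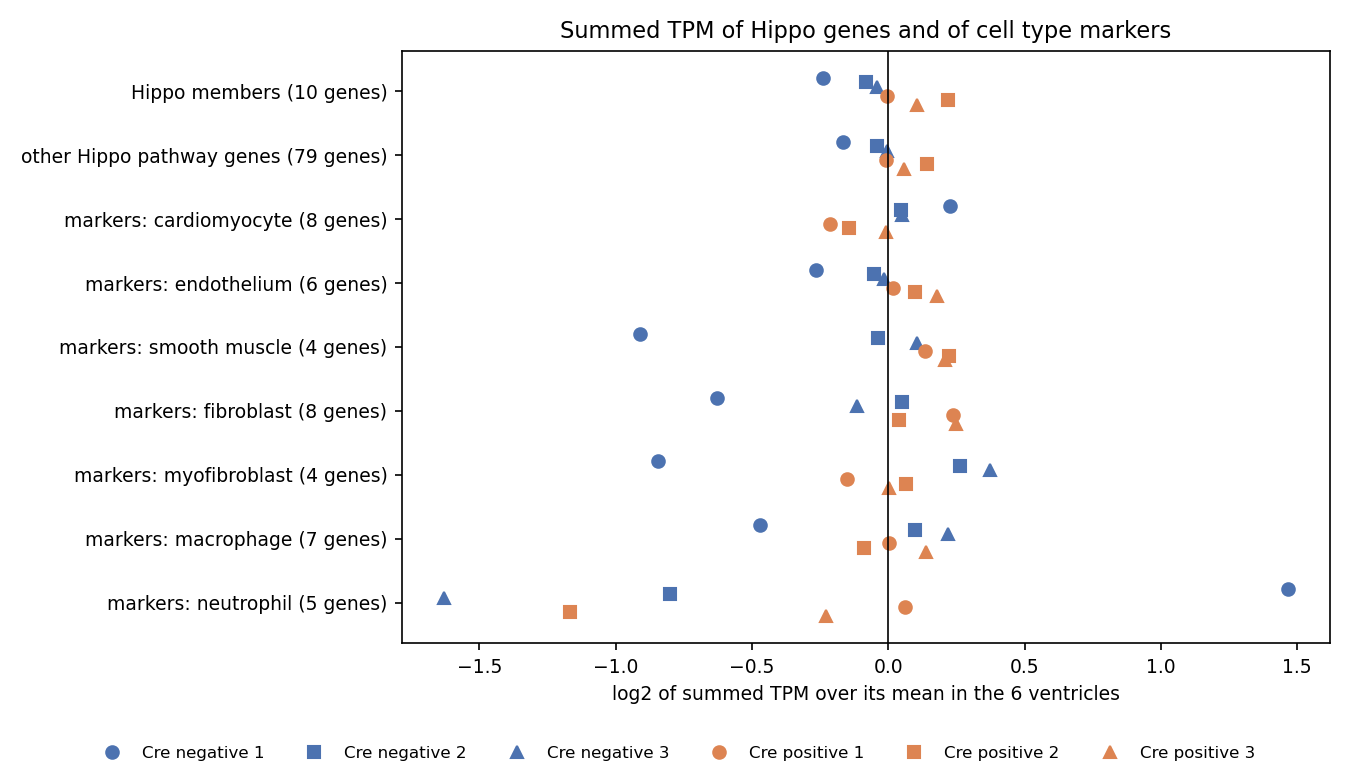
Log2 of the summed TPM of each gene list over its mean in the 6 ventricles, for the Hippo genes described here (Hippo members), the rest of the pathway and 7 lists of cell type markers. Colours and shapes mark group and replicate. The 10 Hippo genes, endothelium and smooth muscle lie higher in every Cre positive ventricle than in any Cre negative one, cardiomyocyte markers lie lower, and Cre negative ventricle 1 is apart in most lists.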

How the data were processed

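Left ventricles of Cre positive and Cre negative mice (3 samples each) were profiled by RNA-seq. RNA was extracted with TRIzol and libraries were made by BGI Americas, according to the labels. The submitters' processing notes name Bowtie2 2.2.5, RSEM 1.2.12 and GRCm38.p6. Their roles, the annotation, strandedness and any trimming are not given in the sources used here. The authors deposited estimated counts, which are not normalized, and 10.97% to 11.77% of them per library are not whole numbers (tolerance 0.005), since reads shared between transcripts or genes are divided. All values of the 10 Hippo genes were whole. The authors also deposited TPM, scaled to transcript length and library, and FPKM, used here as an alternative to TPM and for the implied transcript lengths. A deposited comparison of the groups made with DESeq2 (log2 fold changes, p-values and q-values), and the group means in the expression table, were not used.

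Counts were rounded to whole numbers, and edgeR 4.0.16 was run under R 4.3.3. Its filterByExpr was applied (minimum count 10, minimum total 15) and left 13817 genes, which were scaled by TMM with factors between 0.921 and 1.04. Groups were compared by the quasi-likelihood test with no covariate and Benjamini-Hochberg adjustment over all genes tested, with a threshold of 0.05. The standard error (SE) of a log2 fold change was its size over the square root of F. Counts called normalized were set to the mean effective library size, 14293745. On simulated counts of 13715 genes, the test called 66 of 100 genes changed 2-fold, 96 of 100 changed 4-fold and 10 of 13515 unchanged genes. No library was a copy of another, since chi-square per gene between any pair was at least 8.13. Positions and upstream sequences are from RefSeq on GRCm38.p6, matched by gene number or symbol. *Stk3* had no upstream sequence in that table. Python 3.11.15 with scipy 1.17.1 gave the exact permutation tests and matplotlib 3.10.9 the figures.

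The 10 genes, and the lists of other pathway genes, Yap target genes and cell type markers, were chosen with earlier results of these data known. All 10 were named. Of the other pathway genes, those past the adjusted threshold, the 4 with the largest positive and the 4 with the largest negative log2 fold change and the 2 with the highest mean TPM of each role were to be named, with the same 4 and 4 for Yap targets. Genes with an unadjusted p under 0.05 were added after their values were seen. Alternatives were DESeq2 1.42.0, its size factors, upper quartile scaling, no filter on low counts, the replicate number as a block, a covariate of Y-linked genes, TPM or FPKM in place of counts, pseudocounts of 0.1 and 1, and leaving out each ventricle in turn.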

Additional observations from a re-analysis of the deposited data

How the results depend on the processing

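None of the 10 Hippo genes and none of the other pathway genes passed an adjusted p of 0.05 under any of the 12 alternatives of the fit, and the smallest adjusted p of the 10 ranged from 0.509 to 0.970. The number with a log2 fold change above 0 was 8 or 9 throughout, and the median of all genes stayed between −0.004 and 0.016. Genes past the adjusted threshold, 1 of 13817, became 5 with DESeq2's Wald test, 0 with the replicate block and 0 to 2 with a ventricle left out. Correlations of the deviations were 0.354, 0.0726 and −0.0318 for same-numbered ventricles and from −0.368 to 0.354 for the other pairs. With 3 ventricles per group these values cannot settle whether replicate numbers pair the ventricles. With the block 3 Hippo genes in place of 2 had an unadjusted p under 0.05, as did 1217 genes in place of 806.

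With each ventricle left out in turn, Hippo genes with an unadjusted p under 0.05 ranged from 0 to 2 (0 without Cre positive ventricle 2, 1 without Cre positive ventricle 3), beside 2.68% to 9.61% of all genes (2.68% and 3.68% in these 2 fits), their median log2 fold change from 0.0739 to 0.185, and those whose groups did not overlap from 2 to 5 (4 without Cre negative ventricle 1, 5 without Cre negative ventricle 3, 4 without Cre positive ventricle 1), beside 21.1% to 28.9% of all genes at 3 ventricles against 2. Every reversal of sign came with a ventricle left out. The log2 fold change ranged from −0.037 to 0.138 for *Stk4*, from −0.0249 to 0.0675 for *Wwc2* (below 0 without Cre positive ventricle 2) and from −0.0242 to 0.0615 for *Yap1*, which was −0.0013 without Cre negative ventricle 3. That of *Wwtr1* stayed above 0, from 0.00103 (without Cre negative ventricle 2) to 0.0684. The difference in log2 TPM ratio ranged from −0.0886 to 0.0349 for *Lats1* over *Lats2*, from −0.0998 to 0.143 for *Stk3* over *Stk4* and from −0.0864 to 0.244 for *Mob1a* over *Mob1b*. Other pathway genes with an unadjusted p under 0.05, 4 of 77, were 7 with the block and 2 to 6 with a ventricle left out (2 without Cre positive ventricle 1, 6 without Cre negative ventricle 1), and their median log2 fold change of 0.07 was 0.04 without Cre positive ventricle 2. The causes were not tested. Counting depth limits *Mob1b*, at 129 to 204 counts, most among the 10.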

Other observations

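Target genes of Yap, which lie downstream of the Hippo kinases, were read from a list of 18, of which 17 were tested (*Foxf2* was not). None passed an adjusted p of 0.05 in edgeR's quasi-likelihood test. At an unadjusted p under 0.05, 2 of 17 were higher in Cre positive ventricles and none was lower, against 5.83% of all genes in either direction and 2.85% higher. Log2 fold changes were above 0 for 13 of 17, against 51.2% of all genes, and their median was 0.10. *Tgfb2*, a growth factor of fibrosis, had the largest, 0.48 (SE 0.16, edgeR p = 0.0189 and adjusted p = 0.714, exact permutation p = 0.1), and its groups did not overlap. *Crim1*, the other gene with an unadjusted p under 0.05, was at 0.20 (SE 0.087, edgeR p = 0.0481 and adjusted p = 0.714, exact permutation p = 0.1), also without overlap. *Ccn1*, *Ccn2* and *Igfbp3* were at 0.42, 0.38 and 0.29. The lowest were *F3* at −0.28, *Nt5e* at −0.13, *Gadd45a* at −0.06 and *Asap1* at −0.05.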
